A study of Mus musculus with 6 samples.

Results

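The genes described here are the cytochrome P450 genes of neonatal dermal fibroblasts that were driven toward adipocytes with and without Nelfb, a subunit of the negative elongation factor that pauses RNA polymerase II. They were chosen by symbol as the protein-coding genes named Cyp with a family number, a subfamily letter and a gene number, with Cyp51 and the Cyp26 genes left out. This gave 25 genes out of 17924 in the table, of which 14362 were protein coding. The rule itself uses no expression value, but it was set with earlier results of these data known. In the GENCODE annotation, 95 protein-coding mouse genes carry a symbol of this form, and 25 of them were analysed here.

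Cytochrome P450 enzymes are heme proteins that insert an atom of oxygen into sterols, fatty acids, vitamins, drugs and other small molecules. Those of the endoplasmic reticulum receive electrons from the reductase Por, and those of mitochondria from the ferredoxin Fdx1 and its reductase Fdxr. They are best known from liver, and in skin and fat they act on cholesterol derivatives, lipid mediators and foreign chemicals.

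Dorsal dermal fibroblasts from newborn (P0) C57BL/6J mice were kept for 14 days in a medium for adipocyte differentiation, and RNA was sequenced from 3 CTL and 3 Nelfb-/- libraries described as biological triplicates. The Nelfb-/- cells carried Nelfb fl/fl with Pdgfra-Cre, and the CTL cells carried Nelfb fl/wt or wt/wt with Pdgfra-Cre, so Cre was present in both groups. Which of the CTL genotypes each library had is not given. Cre was driven by the promoter of Pdgfra, a gene of fibroblasts and adipocyte precursors, so other cells in the culture need not have lost Nelfb. The targeted gene Nelfb held 17.3 to 22.3 CPM (reads per 1000000 reads on the listed genes) across CTL and 3.90 to 5.55 CPM across Nelfb-/- cultures, which limma put at a log2 fold change of -1.99 with an adjusted p of 0.0050.

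The libraries each held between 17.2 and 29.4 M reads (M, 1000000) over the genes listed, and 3 reads, taken as the floor of detection, were worth 0.102 to 0.175 CPM. The label of the cells, mouse adipocytes, was checked against 10 adipocyte markers, and all 10 were read in every library. Their summed level was 23830 to 40630 CPM across CTL and 17320 to 27530 CPM across Nelfb-/- cultures. Much of it was Fabp4 (12710 to 17830 CPM in CTL, 4571 to 10810 CPM in Nelfb-/- cells) and Lpl (5861 to 11650 CPM and 5689 to 6833 CPM). Of the 10 log2 fold changes, 7 were negative and 3 positive. Retn was downregulated (-2.12) and Lep upregulated (5.26), 1 gene each way, beside 3.64% and 7.58% of all genes. Markers of fibroblasts (8 genes) summed to 5074 to 16230 CPM across CTL and 8008 to 25270 CPM across Nelfb-/- cultures. Of the 8, 0 were called, beside 11.2% of all genes, and 7 log2 fold changes were positive. Macrophage markers (9 genes) summed to 162 to 623 CPM across CTL and 1620 to 5083 CPM across Nelfb-/- cultures, and 8 of the 9 were upregulated. None of the adipocyte, fibroblast or macrophage markers was at 0 in any library. Markers of melanocytes summed to 56.5 to 81.6 CPM across CTL and 103 to 214 CPM across Nelfb-/- cultures (6 of 7 tested upregulated). The largest part of the CTL sum was Mitf (47.2 to 72.4 CPM), which was not called (log2 fold change -0.65). Tyr, Tyrp1 and Mlana each held at most 2 reads in any CTL library and 20 to 737 reads in Nelfb-/- libraries. Markers of Schwann cells, which share Sox10 with the melanocyte list, summed to 72.5 to 105 CPM and 288 to 380 CPM (3 of 5 upregulated and 1 downregulated). Those of skeletal muscle summed to 6.91 to 9.21 CPM and 42.3 to 68.6 CPM (4 of 4 upregulated). Keratinocyte markers summed to 3.34 to 3.83 CPM across CTL and 8.34 to 19.8 CPM across Nelfb-/- cultures (2 of 5 upregulated). Endothelial markers summed to 7.58 to 11.6 CPM and 8.09 to 19.9 CPM (0 of 5 called, 1 with an unadjusted p under 0.05), and mast cell markers to 1.16 to 4.81 CPM and 2.27 to 10.4 CPM (0 of 1 called, 0 with an unadjusted p under 0.05). The part of any of these cells in the P450 values was not tested. In a principal component analysis, CTL replicate 3 and Nelfb-/- replicate 1 stood apart from the other libraries of their groups on the second component, which held 27.7% of the variance. Among CTL, replicate 3 had the lowest adipocyte sum and the highest fibroblast sum. Among Nelfb-/- cells, replicate 1 had the lowest adipocyte sum (17320 CPM) and the highest macrophage sum (5083 CPM). In bulk RNA, fewer cells of a type and less RNA per cell cannot be told apart.

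Of the 25 P450 genes, 5 passed the test between the genotypes. Cyp2d22 and Cyp39a1 were downregulated in Nelfb-/- cells, and Cyp1b1, Cyp7b1 and Cyp4a12b were upregulated. A gene was tested when its mean reached 10 reads at a common depth of 22.3 M reads (0.448 CPM), which 21 of the 25 did, and it was counted as changed at an adjusted p of at most 0.05 together with a change of at least 2-fold. The 5 changed genes were 23.8% of the 21 tested, where 11.2% of all 16252 genes tested were called. By direction, 2 of 21 were lower against 3.64% of all genes, and 3 of 21 were higher against 7.58% of all genes. The log2 fold change (Nelfb-/- relative to CTL) was negative in 14 of the 21 and positive in 7, with a median of -0.35 beside 0.07 over all genes tested. The 3 libraries of one genotype all lay beyond the 3 of the other at 7 P450 genes, where this held for 38.1% of all genes tested. Of these, 4 were lower in Nelfb-/- cells, beside 16.1% of all genes, and 3 were higher, beside 22.0%. Another 4 genes had a fold change of at least 2 without passing the test, and 12 had a smaller one.

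**Figure D1:**
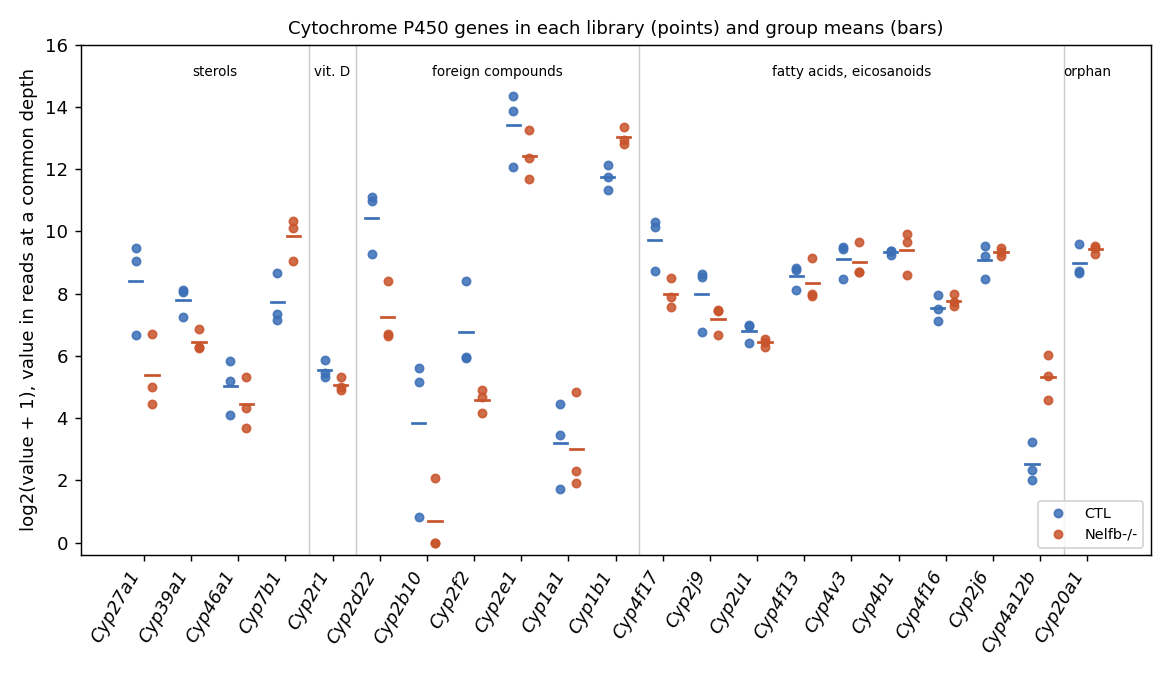
Level of the 21 tested P450 genes in each library, as log2(value + 1) with the value in reads at the common depth on the y axis, and genes grouped by the substrates of their enzymes on the x axis. Points are the 3 CTL and 3 Nelfb-/- libraries and bars are group means. The groups lie apart for Cyp39a1, Cyp7b1, Cyp2d22, Cyp2f2, Cyp1b1, Cyp4f17 and Cyp4a12b.

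**Figure D2:**
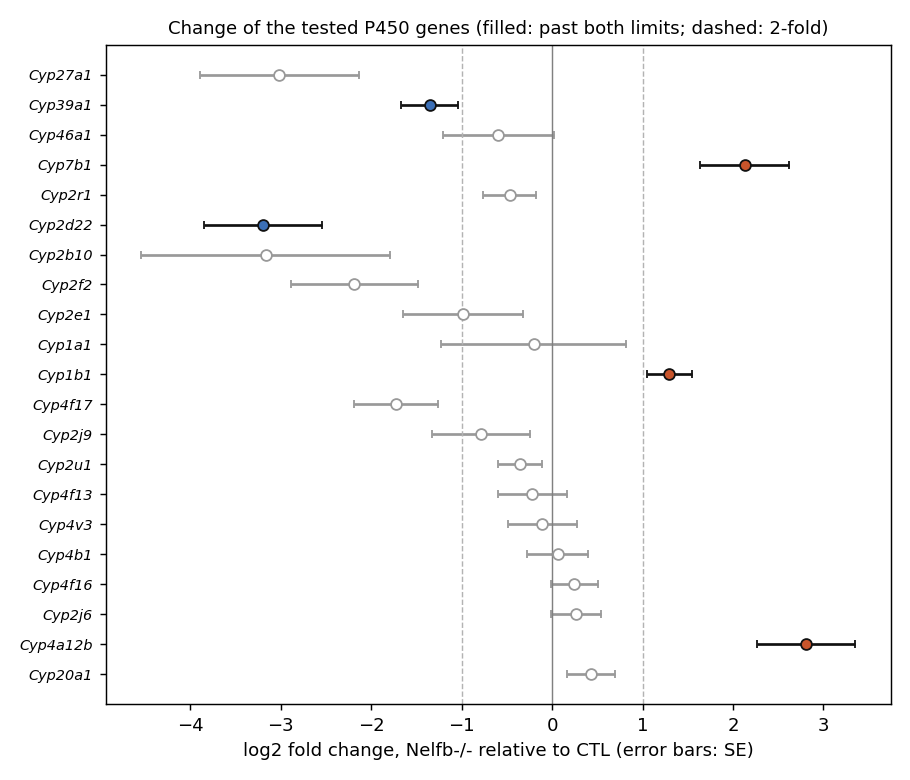
Log2 fold change in Nelfb-/- relative to CTL cells (x axis) of the 21 tested P450 genes (y axis), with error bars of 1 SE. Filled points passed both limits: Cyp39a1 and Cyp2d22 on the lower side and Cyp7b1, Cyp1b1 and Cyp4a12b on the higher side, with the dashed lines at a change of 2-fold.

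Levels of the 25 P450 genes were compared with each other as CPM per kb of merged exon, since CPM carries no correction for length. Cyp51 and Cyp26b1, outside the rule, are not in this order. Cyp51 averaged 135 CPM per kb in CTL and 39.8 in Nelfb-/- cells, and Cyp26b1 58.8 and 19.1. Cyp2e1, which oxidizes ethanol and small solvents, stood at the top in CTL with a mean of 275 CPM per kb (SD 173, n = 3), and its lowest library (88.4) was above the highest of Cyp1b1 (34.3). Cyp1b1, which oxidizes polycyclic hydrocarbons, estrogens and retinoids, followed at 26.8 CPM per kb (SD 7.40). Cyp2d22 (18.3), Cyp4f17 (13.1), Cyp4b1 (12.8), Cyp20a1 (10.4) and Cyp27a1 (9.18) came next, and the ranges of neighbors in this order overlapped from Cyp1b1 down to Cyp27a1. In Nelfb-/- cells the order of the mean levels was Cyp2e1 (127 CPM per kb), Cyp1b1 (64.8), Cyp7b1 (20.3), Cyp4b1 (14.3) and Cyp20a1 (13.4). The ranges of Cyp2e1 and Cyp1b1 overlapped there, while every library of Cyp1b1 was above every library of Cyp7b1. By group means, Cyp2d22 went from rank 3 in CTL to rank 11 in Nelfb-/- cells and Cyp7b1 from rank 10 to rank 3. In both groups the range of each overlapped that of the next gene, so these ranks are loose. Rank 3 was held by Cyp20a1 in CTL replicate 3 and in Nelfb-/- replicate 1. In CTL replicate 3, Cyp7b1 (8.29 CPM per kb) was already above Cyp2d22 (7.04).

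The sum over all 25 genes was 582, 452 and 182 CPM per kb in CTL replicates 1, 2 and 3 and 336, 231 and 258 CPM per kb in the Nelfb-/- replicates. The groups overlapped, with CTL replicate 3 the lowest of all 6 libraries. Cyp2e1 made up 73.7%, 68.2% and 48.6% of this sum in CTL and 61.1%, 29.4% and 41.9% in Nelfb-/- cells, which also overlapped. Cyp1b1 made up 5.89%, 5.85% and 10.7% in CTL and 16.5%, 34.4% and 23.2% in Nelfb-/- cells, and here the groups lay apart. The ratio of Cyp1b1 to Cyp2e1 per kb was 0.0799, 0.0858 and 0.221 in CTL and 0.269, 1.17 and 0.553 in Nelfb-/- cells, so Cyp1b1 was the highest of the 25 genes in Nelfb-/- replicate 2 only. The shares were not tested. For the ratio, an exact two-sided permutation test gave p = 0.1, the smallest that 3 against 3 libraries allow, and 0.125 after adjustment over the 5 ratios of P450 gene pairs computed, which were chosen after the values were seen.

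**Figure D3:**
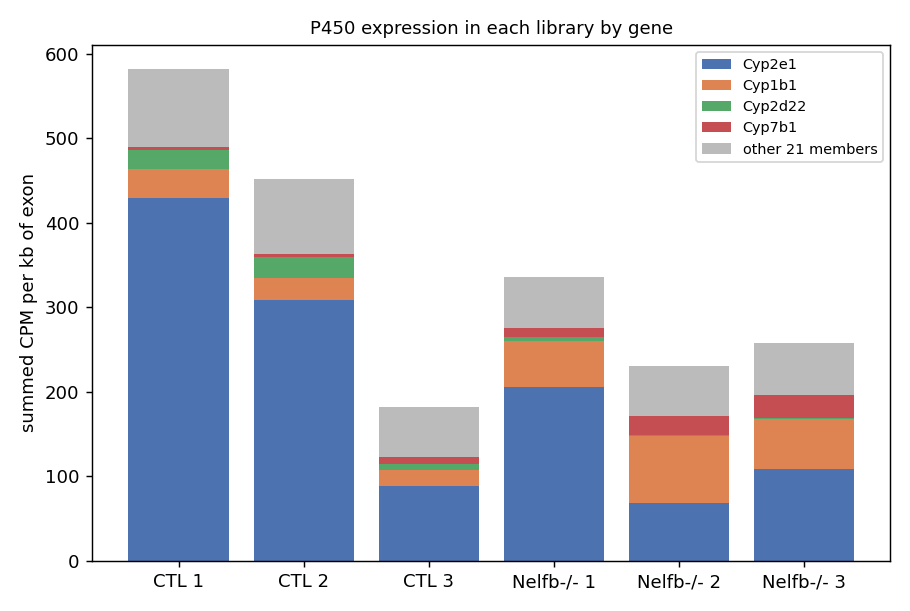
Summed level of the 25 P450 genes in CPM per kb of exon (y axis) in each of the 6 libraries (x axis), split by gene. The blue part is Cyp2e1 and the orange part Cyp1b1, which took 5.85% to 10.7% of the bar in CTL and 16.5% to 34.4% in Nelfb-/- cells.

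Of the 4 tested genes that act on sterols and steroids, 1 was lower and 1 higher, beside 3.64% and 7.58% of all genes. Cyp39a1 was downregulated, Cyp7b1 was upregulated, and Cyp27a1 and Cyp46a1 did not pass the test. Cyp39a1 (ENSMUSG00000023963, chromosome 17 from 43667425 to 43751431, GRCm38) hydroxylates the oxysterol that Cyp46a1 makes from cholesterol. It was at 12.3, 11.9 and 6.77 CPM across CTL replicates 1, 2 and 3, against 3.41, 5.12 and 3.35 CPM across Nelfb-/- replicates. Every CTL library was above every Nelfb-/- library, with CTL replicate 3 the nearest to them. By limma its log2 fold change came to -1.35 (SE 0.32, adjusted p = 0.035), a level 2.55-fold lower.

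Cyp7b1 (ENSMUSG00000039519, chromosome 3 from 18071950 to 18243338) hydroxylates the oxysterols made by Cyp27a1 and Ch25h and also acts on some steroids. Its level was 7.17, 6.35 and 17.9 CPM across CTL against 23.9, 49.6 and 58.3 CPM across Nelfb-/- cultures. CTL replicate 3 was the highest of the controls and Nelfb-/- replicate 1 the lowest of the Nelfb-/- libraries, and the groups did not overlap. This gave a log2 fold change of 2.13 with an SE of 0.50 and an adjusted p of 0.034 by limma, a level 4.37-fold higher. The ratio of Cyp7b1 to Cyp39a1 in CPM per kb was 0.824, 0.749 and 3.74 in CTL and 9.87, 13.7 and 24.6 in Nelfb-/- cells (exact permutation p = 0.1, adjusted 0.125).

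Both calls depended on single libraries. For Cyp39a1 the adjusted p was 0.13 without CTL replicate 1, 0.13 without CTL replicate 2, and 0.065, 0.058 and 0.13 without Nelfb-/- replicates 1, 2 and 3, and the log2 fold change stayed between -1.63 and -1.20. For Cyp7b1 it was 0.12 without CTL replicate 1 or CTL replicate 2 and 0.11 and 0.13 without Nelfb-/- replicates 2 and 3, with a log2 fold change between 1.85 and 2.60.

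Cyp27a1, the mitochondrial enzyme that hydroxylates the side chain of cholesterol, was at 23.9, 31.4 and 4.56 CPM across CTL against 4.65, 0.931 and 1.39 CPM across Nelfb-/- cultures. CTL replicates 1 and 2 were far above the other libraries, while CTL replicate 3 lay just under Nelfb-/- replicate 1. The log2 fold change of -3.01 (SE 0.88) did not pass (limma, adjusted p = 0.065). It passed without CTL replicate 3 (-3.87, adjusted p = 0.018) and without Nelfb-/- replicate 1 (-3.68, adjusted p = 0.041), and on each of the other 4 omissions it was between -2.82 and -2.49 with an adjusted p of 0.17 to 0.20. Cyp46a1, the cholesterol hydroxylase known from neurons, was at 0.714 to 2.52 CPM across CTL and 0.524 to 1.75 CPM across Nelfb-/- cultures (adjusted p = 0.55). Cyp11a1, which opens steroid synthesis by cleaving the side chain of cholesterol, held 1 to 12 reads in each library and was not tested. Cyp2r1, which carries out the first hydroxylation of vitamin D, was at 1.73 to 2.58 CPM across CTL and 1.28 to 1.75 CPM across Nelfb-/- cultures, with a log2 fold change of -0.47 (SE 0.30, adjusted p = 0.33).

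**Figure D4:**
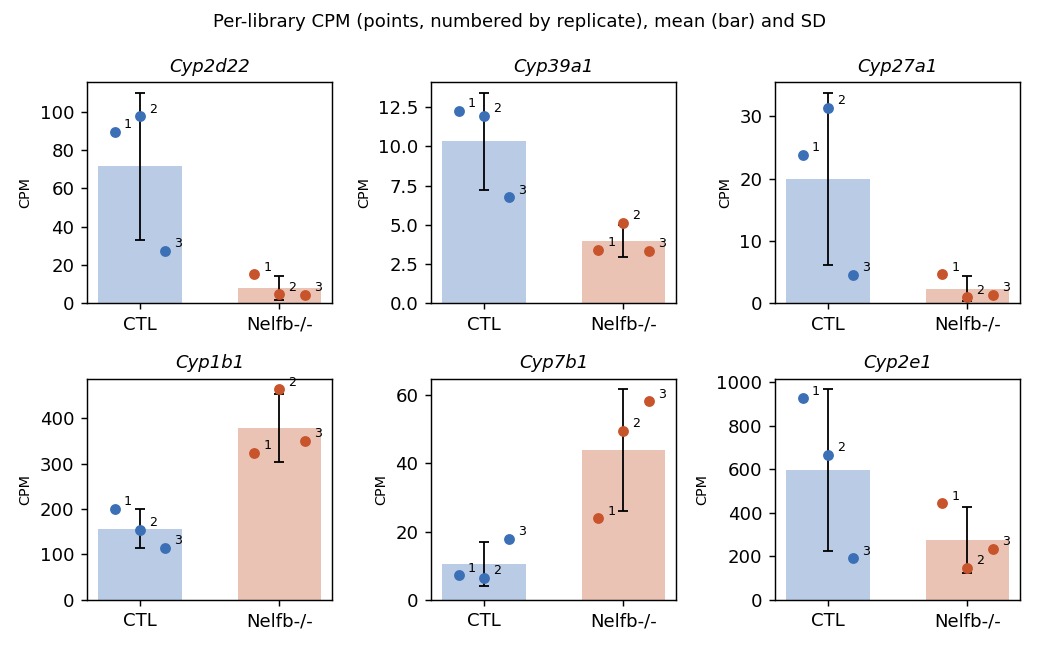
CPM (y axis, from 0) of Cyp2d22, Cyp39a1, Cyp27a1, Cyp1b1, Cyp7b1 and Cyp2e1 in CTL and Nelfb-/- cells (x axis), with points numbered by replicate, bars for means and error bars for SD (n = 3). For Cyp2d22, Cyp39a1, Cyp27a1 and Cyp2e1, CTL replicate 3 was the CTL library with the lowest value, and for Cyp7b1 it was the highest. For Cyp1b1 it was also the lowest, which at this upregulated gene is the CTL value farthest from Nelfb-/- cells.

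Among the P450 genes known for handling foreign compounds, Cyp2d22 was downregulated and Cyp1b1 was upregulated, while Cyp2e1, Cyp2f2, Cyp2b10 and Cyp1a1 did not pass the test. That is 1 lower and 1 higher of 6 tested, beside 3.64% and 7.58% of all genes. Cyp2d22 (ENSMUSG00000061740, chromosome 15 from 82370527 to 82380260) belongs to the subfamily of the human drug-metabolizing enzyme CYP2D6. It was at 89.6, 97.6 and 27.5 CPM across CTL against 15.2, 4.60 and 4.41 CPM across Nelfb-/- cultures. The groups lay apart, and CTL replicate 3 and Nelfb-/- replicate 1 were the libraries nearest to the other genotype. In the limma fit its log2 fold change reached -3.19 (SE 0.66) with an adjusted p of 0.024, a level 9.15-fold lower. The adjusted p was 0.088 and 0.091 without CTL replicates 1 and 2 and 0.079 and 0.094 without Nelfb-/- replicates 2 and 3, and the log2 fold change stayed between -3.78 and -2.87.

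Cyp1b1 (ENSMUSG00000024087, chromosome 17 from 79701537 to 79715061) was at 200.2, 155 and 114 CPM across CTL against 323, 464 and 349 CPM across Nelfb-/- cultures. All Nelfb-/- libraries were above all CTL libraries, with 3312 to 8563 reads behind each value. By limma its log2 fold change came to 1.30 (SE 0.25, adjusted p = 0.020), a level 2.46-fold higher. Without CTL replicate 2 the adjusted p was 0.078, and without Nelfb-/- replicates 2 and 3 it was 0.067 and 0.078, with a log2 fold change between 1.09 and 1.49 over the 6 omissions.

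Cyp1a1 (ENSMUSG00000032315, chromosome 9 from 57687928 to 57703824), the classic target of the aryl hydrocarbon receptor AHR and like Cyp1b1 a family 1 enzyme, was near the floor. It held 10, 20 and 3 reads in CTL and 26, 3 and 3 reads in Nelfb-/- cells, so the groups overlapped. This gave a log2 fold change of -0.20 with an SE of 1.02 and an adjusted p of 0.91 by limma, and the direction turned with single libraries, from -1.11 without Nelfb-/- replicate 1 to 0.42 without CTL replicate 2, 0.16 without Nelfb-/- replicate 2 and 0.35 without Nelfb-/- replicate 3. AHR binds the letters GCGTG with its partner Arnt, and the sequences just before the starts of both genes are shown because Ahr and Cyp1b1 rose in Nelfb-/- cells while Cyp1a1 did not pass the test. Each window holds the 250 bases before a RefSeq start (GRCm38.p6), written 5′ to 3′ along the gene's strand, at chr17:79715062-79715311 on the minus strand for Cyp1b1 and at chr9:57697363-57697612 on the plus strand for Cyp1a1. Capitals mark GCGTG, the GC box letters GGGCGG or the TATA box letters TATAAA, read on either strand.
Cyp1b1: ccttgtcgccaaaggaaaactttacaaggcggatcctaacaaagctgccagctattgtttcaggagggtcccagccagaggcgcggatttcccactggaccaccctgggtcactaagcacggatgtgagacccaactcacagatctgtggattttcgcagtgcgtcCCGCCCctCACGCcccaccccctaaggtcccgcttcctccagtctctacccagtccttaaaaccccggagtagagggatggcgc
Cyp1a1: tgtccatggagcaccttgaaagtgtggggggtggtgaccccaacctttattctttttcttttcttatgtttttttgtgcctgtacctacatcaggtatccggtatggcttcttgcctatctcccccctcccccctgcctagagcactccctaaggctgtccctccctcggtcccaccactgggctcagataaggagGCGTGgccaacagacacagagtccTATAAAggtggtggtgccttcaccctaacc
The Cyp1b1 window holds 1 GCGTG that starts 76 bases before the gene's start and 1 GGGCGG at 84 bases, both on the opposite strand, and no TATAAA. The Cyp1a1 window holds 1 GCGTG at 54 bases and 1 TATAAA at 30 bases and no GGGCGG. With 1 GCGTG in each window, these letters do not set the 2 genes apart. Bases farther than 250 before the start were not searched, and binding of AHR was not tested. This RefSeq start of Cyp1a1 lies 9685 bases into the gene as the table places it. Windows were matched for 18 of the 25 P450 genes, and the window nearest to the start in the table was used where a gene had several. GCGTG was in 8 of these 18 and in 28.2% of all 32851 windows, and GGGCGG was in 10 of 18 and in 32.7% of all windows. TATAAA was in 2 of 18 and in 12.4% of all windows, and CCAAT was in 9 of 18 and in 33.8% of all windows. The DR1 element of nuclear receptors was in 0 of 18 and in 0.0335% of all windows, and TTGCGCAA was in 0 of 18 and in 0.164% of all windows. Of the 5 changed genes, Cyp1b1 was the only one with a matched window.

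Cyp2e1 (ENSMUSG00000025479, chromosome 7 from 140763739 to 140774987) was at 926, 666 and 191 CPM across CTL against 443, 146 and 233 CPM across Nelfb-/- cultures. CTL replicates 1 and 2 were above all Nelfb-/- libraries and CTL replicate 3 was below all but Nelfb-/- replicate 2. The log2 fold change of -0.99 (SE 0.66) did not pass (adjusted p = 0.35), and it ranged from -1.67 without CTL replicate 3 to -0.53 without CTL replicate 1. Cyp2f2, which activates naphthalene in airway cells, was at 15.2, 2.66 and 2.75 CPM across CTL against 1.28, 0.757 and 1.10 CPM across Nelfb-/- cultures. Its groups lay apart, with CTL replicate 1 far above the others, and the log2 fold change was -2.19 (SE 0.70, adjusted p = 0.082). Without CTL replicate 1 it was -1.37 (adjusted p = 0.11). Cyp2b10, a target of the receptor CAR (Nr1i3), held 47, 33 and 1 reads in CTL and 3, 0 and 0 reads in Nelfb-/- cells. It did not pass (adjusted p = 0.17), and without CTL replicate 3 it did (adjusted p = 0.017), while on the other 5 omissions the adjusted p was 0.13 to 0.42. Cyp2s1, a P450 of epithelia, held 41 reads in CTL replicate 3 and 1 to 4 reads in each other library and was not tested.

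Among the P450 genes of fatty acids and eicosanoids, Cyp4a12b was upregulated and no other gene passed the test. Of the 11 genes, 9 were tested and 1 was called, beside 11.2% of all genes. Their log2 fold changes (median -0.11) were negative in 5 and positive in 4, beside 7384 of 16252 negative over all genes. Cyp4a12b (ENSMUSG00000078597, chromosome 4 from 115411624 to 115439034), a hydroxylase of the end carbon of fatty acids, was at 0.180, 0.373 and 0.136 CPM across CTL against 1.03, 1.80 and 2.90 CPM across Nelfb-/- cultures. These values stand for 4, 8 and 4 reads and for 21.8, 30.9 and 71.1 reads, so the groups lay apart at a low level. In the limma fit its log2 fold change reached 2.81 (SE 0.54) with an adjusted p of 0.020, and the adjusted p was 0.074 without CTL replicate 1 and 0.069 and 0.090 without Nelfb-/- replicates 2 and 3. Over the 6 omissions the log2 fold change stayed between 2.45 and 3.18. At so few reads its size depended on the pseudocount, with 3.04 for 0.1 read, 1.74 for 10 reads and 1.20 for 1 CPM. Its values in Nelfb-/- cells were not whole reads and the near-identical copy Cyp4a12a was not analysed here, so the values of Cyp4a12b are uncertain.

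Cyp4f17, Cyp4f16 and Cyp4f13, from the family that hydroxylates leukotrienes and long fatty acids, lie within 441 kb of chromosome 17 (32506050 to 32947402). Cyp4f17 was at 50.3, 56.3 and 18.7 CPM across CTL against 16.3, 8.50 and 10.5 CPM across Nelfb-/- cultures. Its groups lay apart by a narrow gap between CTL replicate 3 and Nelfb-/- replicate 1, and the log2 fold change of -1.73 (SE 0.46) missed the threshold (limma, adjusted p = 0.052). It passed with median-of-ratios scaling (adjusted p = 0.049), with upper-quartile scaling (adjusted p = 0.047), without CTL replicate 3 (-2.23, adjusted p = 0.0094) and without Nelfb-/- replicate 1 (-1.99, adjusted p = 0.049). On each of the other 4 omissions it moved away from the threshold, to between -1.67 and -1.44 with an adjusted p of 0.15 to 0.17, and the adjusted p was 0.070 without a variance trend and 0.067 with voom weights. Cyp4f13 held 432, 429 and 364 reads in CTL and 529, 184 and 280 reads in Nelfb-/- cells, which overlapped (adjusted p = 0.73). Cyp4f16 was at 6.21 to 11.1 CPM across CTL and 8.68 to 11.4 CPM across Nelfb-/- cultures, with a log2 fold change of 0.25 (SE 0.26, adjusted p = 0.55). The ratio of Cyp4f17 to Cyp4f13 in CPM per kb was 3.59, 3.90 and 2.10 in CTL and 0.903, 1.10 and 1.27 in Nelfb-/- cells, so every CTL library was above every Nelfb-/- library (exact permutation p = 0.1, adjusted 0.125). The ratio to Cyp4f16 was 6.01, 8.70 and 1.63 in CTL and 1.80, 0.870 and 0.884 in Nelfb-/- cells, which overlapped (exact permutation p = 0.2). Cyp4f18, a family member known from leukocytes, held 0 reads in all CTL libraries, which allows up to 0.102 to 0.140 CPM by the floor of 3 reads, and 21, 2 and 0 reads in the Nelfb-/- replicates. The library with 21 reads, Nelfb-/- replicate 1, had the highest macrophage sum, and the part of such cells in this value was not tested.

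Cyp2j6 and Cyp2j9, which make epoxides of arachidonic acid, lie within 75.4 kb of chromosome 4. Cyp2j6 was at 33.0, 26.7 and 15.8 CPM across CTL against 29.1, 31.8 and 26.1 CPM across Nelfb-/- cultures (log2 fold change 0.26, SE 0.28, adjusted p = 0.55). Cyp2j9 was at 17.7, 16.5 and 4.83 CPM across CTL against 7.68, 7.97 and 4.49 CPM across Nelfb-/- cultures, and its log2 fold change of -0.78 (SE 0.54) did not pass (adjusted p = 0.36). It was -1.39 without CTL replicate 3 (adjusted p = 0.029), and between -0.93 and -0.45 on the other 5 omissions, with an adjusted p of up to 0.70. The ratio of Cyp2j9 to Cyp2j6 in CPM per kb was 0.581, 0.668 and 0.329 in CTL and 0.285, 0.271 and 0.185 in Nelfb-/- cells, so the ratios did not overlap (exact permutation p = 0.1, adjusted 0.125).

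Cyp4b1, a hydroxylase of fatty acids, held 27.2, 29.6 and 29.7 CPM across CTL against 17.3, 36.3 and 43.3 CPM across Nelfb-/- cultures. The Nelfb-/- libraries lay on both sides of CTL, and the log2 fold change was 0.06 (SE 0.34, adjusted p = 0.92). Cyp4v3, the counterpart of the human gene of Bietti crystalline dystrophy, was at 32.5, 30.7 and 15.6 CPM across CTL against 36.4, 18.5 and 18.6 CPM across Nelfb-/- cultures (adjusted p = 0.88). Cyp2u1, which hydroxylates long fatty acids, was at 3.77 to 5.64 CPM across CTL and 3.46 to 4.12 CPM across Nelfb-/- cultures (adjusted p = 0.37). Cyp4a10 held 8 to 14 reads in each library, with a mean of 9.87 at the common depth, just under the limit for testing. Cyp20a1, an orphan without a settled substrate, was at 18.9, 18.1 and 34.3 CPM across CTL against 27.5, 31.5 and 33.2 CPM across Nelfb-/- cultures (log2 fold change 0.43, SE 0.27, adjusted p = 0.32). CTL replicate 3 was the highest of all 6 libraries for Cyp20a1, and the other CTL libraries were below all Nelfb-/- libraries.

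The position of CTL replicate 3 recurred across these genes. On the log2 scale it was nearer to the mean of the Nelfb-/- libraries than CTL replicates 1 and 2 were at 14 of the 21 tested P450 genes (66.7%) and at 47.2% of all genes tested. Its adipocyte sum was 23830 CPM beside 35440 and 40630 CPM in the other CTL libraries, and its fibroblast sum was 16230 CPM beside 5074 and 5556 CPM. The part of these differences in the P450 values was not tested. Without CTL replicate 3, 6 P450 genes were lower and 3 higher in Nelfb-/- cells, where 4.74% of all genes were called lower and 10.4% higher. Without both CTL replicate 3 and Nelfb-/- replicate 1, a choice made after the data were seen, 10 of 21 were lower and 3 higher, where 9.34% of all genes were called lower and 17.6% higher. The 10 were Cyp2d22, Cyp39a1, Cyp27a1, Cyp4f17, Cyp2f2, Cyp2b10, Cyp2e1, Cyp2j9, Cyp46a1 and Cyp1a1, and the 3 were Cyp1b1, Cyp7b1 and Cyp4a12b. The other way round, no P450 gene was called with limma without Nelfb-/- replicate 2 or without Nelfb-/- replicate 3, where 987 and 447 of all genes were called and 7 and 8 of the 21 had an unadjusted p under 0.05. Without CTL replicate 1 the only P450 call was Cyp1b1, where 856 of all genes (5.27%) were called. Without CTL replicate 2 it was Cyp4a12b, where 746 of all genes (4.59%) were called.

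None of the tested genes for proteins that pass electrons to P450 enzymes or bind to them passed the same test. Of 11 such redox partners and binding proteins tested, 0 were called by limma, beside 11.2% of all genes, and Cyb5r2 was not tested. Limma without a variance trend or with voom weights also called 0, and 0 had an unadjusted p under 0.05 by limma. Por was at 461, 489 and 230.1 CPM across CTL against 498, 296 and 291 CPM across Nelfb-/- cultures, a log2 fold change of -0.09 (SE 0.36, adjusted p = 0.89). Fdx1 had a log2 fold change of 0.06 (SE 0.17, adjusted p = 0.84) and Fdxr one of -0.09 (SE 0.30, adjusted p = 0.87). The log2 fold changes of the 11 ran from -1.04, at the cytochrome b5 gene Cyb5a (adjusted p = 0.17), to 0.18.

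Heme synthesis held 2 downregulated genes of 12 tested, beside 3.64% of all genes, and 9 of the 12 log2 fold changes were negative, beside 7384 of 16252 over all genes. Alas1, the enzyme of the first and rate-limiting step, was at 673, 446 and 497 CPM across CTL against 150, 174 and 185 CPM across Nelfb-/- cultures. The groups were far apart, at a log2 fold change of -1.65 with an SE of 0.20 (limma, adjusted p = 0.0060), and the call was kept in each of the 6 omissions of a library. Slc25a39, a mitochondrial carrier linked to glutathione and heme, fell from 172 to 224 CPM in CTL to 76.1 to 101 CPM in Nelfb-/- cells (log2 fold change -1.11, SE 0.17, adjusted p = 0.011). That call did not hold without CTL replicate 3, Nelfb-/- replicate 1 or Nelfb-/- replicate 3, with log2 fold changes between -1.19 and -0.99 and an adjusted p of up to 0.057 over the 6 omissions. Alad, the enzyme of the second step, had an adjusted p of 0.021 with a log2 fold change of -0.76, short of 2-fold. Of 4 heme breakdown genes 0 were called by limma, beside 11.2% of all genes, and 0 with voom weights. By limma 0 had an unadjusted p under 0.05, and Hmox1 had a log2 fold change of 0.28 (SE 0.33, adjusted p = 0.60).

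In a list of receptors that sense foreign compounds and sterols, which also holds the AHR partners Arnt and Arnt2 and the AHR repressor Ahrr, the receptors Ahr and Vdr and the partner protein Arnt2 were upregulated of 12 tested and 0 were downregulated, beside 7.58% and 3.64% of all genes. The log2 fold change was negative in 7 of the 12, with a median of -0.43 beside 0.07 over all genes. The groups lay apart at 9 of the 12, with 4 higher in Nelfb-/- cells and 5 lower (Nr1i3, Nr1h2, Nr1h3, Ppara and Rxrb), beside 22.0% and 16.1% of all genes, and none of the 5 reached both limits. Ahr was at 4.33, 6.53 and 3.57 CPM across CTL against 39.8, 42.1 and 28.0 CPM across Nelfb-/- cultures. Every Nelfb-/- library was far above CTL, at a log2 fold change of 2.94 with an SE of 0.28 (limma, adjusted p = 0.0040) that was called in all 6 omissions. Arnt2, a relative of the partner of AHR, rose from 2.75 to 5.54 CPM in CTL to 12.2 to 16.7 CPM in Nelfb-/- cells (log2 fold change 1.87, adjusted p = 0.013), and the call was lost without Nelfb-/- replicate 3 (adjusted p = 0.062), with log2 fold changes of 1.66 to 2.16 over the 6 omissions. Arnt itself was at 79.5 to 135 CPM across CTL and 61.1 to 115 CPM across Nelfb-/- cultures (adjusted p = 0.31). Vdr, the vitamin D receptor, rose from 7.58 to 21.8 CPM in CTL to 32.8 to 81.6 CPM in Nelfb-/- cells (log2 fold change 2.45, SE 0.53, adjusted p = 0.028). The Vdr call did not hold on omission of CTL replicate 1 or 2 or of Nelfb-/- replicate 2 or 3, with an adjusted p of up to 0.11 and log2 fold changes between 2.18 and 2.94. Nr1h3, the oxysterol receptor LXR alpha, had an adjusted p of 0.041 with a log2 fold change of -0.57, short of 2-fold. Of 6 AHR target genes outside the P450 family, among them Ahrr, which is also 1 of the 12, 0 were called by limma, beside 11.2% of all genes. With voom weights 0 were called too, and by limma 2 had an unadjusted p under 0.05. These were Ahrr, the AHR repressor (log2 fold change 1.96, SE 0.59, adjusted p = 0.071), and Nqo1, a quinone reductase (1.22, SE 0.48, adjusted p = 0.14). The log2 fold change was positive in 3 of the 6 and negative in 3, at Tiparp (-0.12), Ugt1a6a (-0.52) and Fbxo32 (-0.61). All Nelfb-/- libraries were above all CTL libraries at 3 of the 6, Ahrr, Nqo1 and Nfe2l2, beside 22.0% of all genes.

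A list of further genes for oxysterols and bile acids held 11 tested genes, among them transport proteins and a receptor, with 2 enzymes downregulated and the receptor Gpr183 upregulated, beside 3.64% and 7.58% of all genes. The log2 fold change was negative in 9 of the 11. Hsd3b7, which acts on the products of Cyp7b1 and Cyp39a1, was at 74.3, 83.5 and 50.7 CPM across CTL against 38.3, 18.9 and 22.1 CPM across Nelfb-/- cultures (log2 fold change -1.43, SE 0.31, limma, adjusted p = 0.029). Akr1c14, a hydroxysteroid dehydrogenase, was at 10.98 to 28.6 CPM across CTL and 0.815 to 5.79 CPM across Nelfb-/- cultures (log2 fold change -3.34, SE 0.80, adjusted p = 0.037). Gpr183, a receptor for oxysterols that Ch25h and Cyp7b1 make, was at 0.0933 to 0.646 CPM across CTL and 2.56 to 4.36 CPM across Nelfb-/- cultures (log2 fold change 3.38, SE 0.62, adjusted p = 0.017). Ch25h, which hydroxylates cholesterol without a heme, was at 1.31 to 1.82 CPM across CTL and 1.80 to 3.22 CPM across Nelfb-/- cultures (log2 fold change 0.63, SE 0.32, adjusted p = 0.23). Each of the 3 calls was lost without CTL replicate 1, without Nelfb-/- replicate 2 or without Nelfb-/- replicate 3, and those of Hsd3b7 and Akr1c14 also without CTL replicate 2. The log2 fold changes over the 6 omissions were -1.73 to -1.23 for Hsd3b7, -4.25 to -2.87 for Akr1c14 and 2.80 to 3.96 for Gpr183, and the adjusted p reached 0.11, 0.13 and 0.075.

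Of 7 genes for epoxides and eicosanoids, 1 was upregulated, beside 7.58% of all genes, and 3 of the 7 log2 fold changes were negative. Alox5, the lipoxygenase of leukotriene synthesis, was at 0.653 to 1.67 CPM across CTL and 8.03 to 18.1 CPM across Nelfb-/- cultures (log2 fold change 3.67, SE 0.46, limma, adjusted p = 0.0066), and the call was kept in all 6 omissions. Of 11 genes for steroid handling, which include the cholesterol transport proteins Star (also in the oxysterol list) and Tspo, 1 was downregulated, beside 3.64% of all genes, and 7 of the 11 log2 fold changes were negative. It was Hsd11b1, which regenerates active glucocorticoid, from 33.9 to 87.6 CPM in CTL to 7.51 to 22.6 CPM in Nelfb-/- cells (log2 fold change -2.23, SE 0.51, adjusted p = 0.033). Flavin monooxygenases, the other large family that oxidizes foreign compounds, held 1 downregulated gene of 5, beside 3.64% of all genes, and all 5 log2 fold changes were negative, between -2.44 and -0.84, beside 7384 of 16252 negative over all genes. That gene was Fmo1, at 117 to 159 CPM across CTL and 43.0 to 82.3 CPM across Nelfb-/- cultures (log2 fold change -1.35, SE 0.28, adjusted p = 0.025). The calls of Hsd11b1 and Fmo1 each failed on omission of CTL replicate 1 or 2 or of Nelfb-/- replicate 2 or 3, where the adjusted p reached 0.12 and 0.098, with log2 fold changes over the 6 omissions of -2.72 to -1.87 and -1.65 to -1.19.

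The P450 enzymes outside the symbol rule also moved in both directions, with 2 downregulated and 1 upregulated of 4 tested, beside 3.64% and 7.58% of all genes. Cyp51, the demethylase of cholesterol synthesis, was at 724, 654 and 415 CPM across CTL against 158, 192 and 177 CPM across Nelfb-/- cultures (log2 fold change -1.73, SE 0.24, limma, adjusted p = 0.0084), a call that did not hold without Nelfb-/- replicate 3 (adjusted p = 0.051), with log2 fold changes of -1.97 to -1.57 over the omissions. Cyp26b1, which degrades retinoic acid, was at 437, 350.2 and 156 CPM across CTL against 108, 81.2 and 118 CPM across Nelfb-/- cultures (log2 fold change -1.51, SE 0.39, adjusted p = 0.046), and its call was kept in 1 of the 6 omissions, that of CTL replicate 3, and over the omissions its adjusted p reached 0.15 and its log2 fold change ran from -1.95 to -1.21. Tbxas1, the thromboxane synthase, was at 1.58, 1.07 and 0.374 CPM across CTL against 15.3, 6.81 and 13.6 CPM across Nelfb-/- cultures (log2 fold change 3.63, SE 0.57, adjusted p = 0.012), a call that did not hold without Nelfb-/- replicate 3 (adjusted p = 0.063), with log2 fold changes of 3.07 to 4.04. Tbxas1, Alox5 and Gpr183 are known from macrophages and other leukocytes, and the macrophage sum was 1620 to 5083 CPM in Nelfb-/- cells beside 162 to 623 CPM in CTL. The part of such cells in these values was not tested. Of 7 hepatocyte markers, Alb and Apoa1 were analysed here. Alb was upregulated, from 1.04 to 1.82 CPM in CTL to 4.19 to 7.16 CPM in Nelfb-/- cells (log2 fold change 1.98, adjusted p = 0.015), and Apoa1 was at 0.578 to 3.87 CPM across CTL and 0.0816 to 0.291 CPM across Nelfb-/- cultures (log2 fold change -2.95, adjusted p = 0.052). The part of such cells in the P450 values was not tested.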

How the data were processed

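RNA-seq of 3 CTL and 3 Nelfb-/- cultures after 14 days was analysed from a gene table. Its values were deposited as CPM with an offset of 0.0001, which was subtracted. The submitters' processing notes name STAR 2.7, Partek 9.0.20.0202 and mm10. Of the values up to 20 reads, 72.4% to 75.0% per library were whole within 0.05 read, so no count test was used. CPM values were multiplied by the common depth and tested with limma 3.58.1 (R 4.3.3) as log2(value + 1) with a variance trend. Benjamini-Hochberg adjustment was over all genes that averaged 10 reads or more. Folds on this log2 scale understate the change of low genes. The fit was also run on simulated data with noise drawn separately for each gene. Such data hold no library-wide differences like those of CTL replicate 3, so they cannot show how the test behaves with them. An exact permutation test of 3 against 3 libraries cannot go below 0.1. Positions and exon lengths are from GENCODE vM21 (GRCm38) and promoter sequences from RefSeq (GRCm38.p6).

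The P450 genes and the lists of pathways and cell types were chosen with earlier results of these data known, and the groups by substrate and the gene pairs after the values were seen. By rule, values in every library are given for changed P450 genes, the 10 with the highest mean levels (by CPM the last is Cyp4f13, per kb Cyp27a1) and those with a fold of at least 2 and groups apart, and called pathway genes are named with Por, Fdx1, Fdxr, Alas1, Ahr, Nr1h3 and Ch25h. Values of Cyp2j9, Cyp2b10, Cyp1a1, Cyp4f18, Cyp2s1, Cyb5a, Alad, Hmox1, Arnt, Ahrr and Nqo1 were added after they were seen. In 17 other fits and 1 more chosen after the data were seen, the changes were to the pseudocount, filter, scaling, variance model, a replicate block or the omission of libraries.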

Additional observations from a re-analysis of the deposited data

How the results depend on the processing

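The 2 lower and 3 higher P450 calls were the same genes under pseudocounts of 0.1 and 10 reads, without a filter on low values, when 10 reads in any library sufficed, without a variance trend, with voom weights, and with a pseudocount of 1 CPM and a mean of at least 0.5 CPM. A mean of at least 50 reads left Cyp4a12b untested and gave 2 lower and 2 higher, and both other scalings added Cyp4f17 and gave 3 lower. Leaving out each library in turn gave 0 to 6 lower P450 calls, 0 to 3 higher calls and 447 to 2454 calls over all genes. Fits without a library test with fewer samples. Omitting CTL replicate 3 and Nelfb-/- replicate 1 together gave 10 lower and 3 higher P450 calls and 4375 over all genes. With the replicate number as a block, 5 P450 genes were lower (Cyp2d22, Cyp39a1, Cyp27a1, Cyp4f17 and Cyp2f2) and 3 higher, with 2175 calls over all genes. The numbers were not taken to pair the libraries, since the deviations from the group means correlated at 0.52, -0.39 and 0.52 for the numbers 1, 2 and 3, and CTL replicate 2 and Nelfb-/- replicate 2 each correlated better with another number. None of the 5 P450 calls changed sign under any of these settings. Among P450 genes that did not pass, some changed sign. With single libraries left out, the log2 fold change ran from -1.11 to 0.42 for Cyp1a1, from -0.036 to 0.49 for Cyp2j6, from -0.20 to 0.46 for Cyp4b1, from -0.61 to 0.0025 for Cyp4f13 and from -0.44 to 0.083 for Cyp4v3. It was -0.040 for Cyp2j6 without CTL replicate 3 and Nelfb-/- replicate 1, and -0.0057 for Cyp4b1 with median-of-ratios scaling, and the cause was not tested. The depth of 17.2 to 29.4 M reads left Cyp11a1, Cyp2s1, Cyp4a10 and Cyp4f18 under the limit for testing, and with 3 libraries in each group a P450 gene that missed the threshold is not shown to be the same in both genotypes.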
